A study of Mus musculus with 12 samples.

Results

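The 9 genes described here belong to hepatic insulin signalling and to the targets of the FOXO transcription factors. They are the receptor gene Insr, the adaptor genes Irs1 and Irs2, the factor genes Foxo1 and Foxo3, and the genes Igfbp1, Sesn3, Tcp11l2 and Bmf. They were taken by symbol from a table of exon counts, and all 9 of the 22618 genes listed there under these symbols were found and passed the filter on low counts, which 17142 genes passed. The 12 liver libraries come from male mice on the C57BL/6j background that carry a double knockout of Cry1 and Cry2; their products, the cryptochromes, hold back CLOCK:BMAL1, the activator of the circadian clock. The mice were 12 to 16 weeks old, had a conventional gut flora and were fed at night, and every library shares this genotype, diet and sex. Sampling was at 4 h spacing over the day, at zeitgeber times (ZT) 2, 6, 10, 14, 18 and 22, and each time point has 2 libraries. The last 3 of these times are called night and the first 3 day, with ZT12 taken as the start of darkness because the sources used here do not state the light schedule. No wild-type library is part of the comparisons, so nothing below says what the loss of the cryptochromes changed. Whether each library is its own animal is not said in the labels, so errors and p-values measure the spread between libraries, which may be technical.

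Insulin released on feeding binds its receptor, which phosphorylates the docking proteins IRS1 and IRS2; these recruit phosphoinositide 3-kinase and so activate the kinase AKT. AKT phosphorylates FOXO1 and FOXO3, which then leave the nucleus, so that genes which FOXO factors activate in the fasted liver are turned down after a meal. Igfbp1 and Irs2 are textbook examples of such insulin-repressed liver genes, and Irs1 transcript levels are known to depend less on feeding.

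The promoters of Igfbp1, Irs2 and Irs1 are shown because they set a classical insulin-repressed gene beside the adaptor pair whose profiles over the day differed. Each is the 300-base window from 250 bases before to 50 bases after the RefSeq transcription start (GRCm38.p6), written 5′ to 3′ on the strand of the gene, and capitals mark matches to CAAAACAA or its complement TTGTTTTG, the core of the insulin response sequence, and to the E-box CACGTG, which basic helix-loop-helix factors such as CLOCK:BMAL1 bind.
Igfbp1, chr11:7197537-7197836, plus strand: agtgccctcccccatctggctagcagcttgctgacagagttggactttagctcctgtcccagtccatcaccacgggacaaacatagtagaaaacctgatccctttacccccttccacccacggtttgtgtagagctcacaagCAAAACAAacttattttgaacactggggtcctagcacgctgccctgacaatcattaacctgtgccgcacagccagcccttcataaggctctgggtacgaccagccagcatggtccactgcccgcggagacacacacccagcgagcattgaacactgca
Irs2, chr8:11008880-11009179, minus strand: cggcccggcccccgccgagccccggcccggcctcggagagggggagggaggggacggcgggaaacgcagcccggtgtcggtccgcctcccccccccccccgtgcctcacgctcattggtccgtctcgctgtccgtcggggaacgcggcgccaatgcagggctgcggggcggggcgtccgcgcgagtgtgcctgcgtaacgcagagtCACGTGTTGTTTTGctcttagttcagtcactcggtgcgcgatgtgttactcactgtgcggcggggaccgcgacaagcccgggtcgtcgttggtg
Irs1, chr1:82291390-82291689, minus strand: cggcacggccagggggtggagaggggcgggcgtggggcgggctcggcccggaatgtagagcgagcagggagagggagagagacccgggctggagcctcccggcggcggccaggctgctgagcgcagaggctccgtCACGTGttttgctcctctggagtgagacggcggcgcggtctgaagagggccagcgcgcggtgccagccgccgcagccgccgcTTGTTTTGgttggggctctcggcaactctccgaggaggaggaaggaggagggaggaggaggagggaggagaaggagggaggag

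The match in the Igfbp1 window starts 108 bases before the transcription start. In the Irs2 window the E-box starts 44 bases before the start and is followed directly by TTGTTTTG, 38 bases before it. In the Irs1 window the same letters lie apart, the E-box at 115 and TTGTTTTG at 33 bases before the start. These distances hold for the RefSeq starts. The Irs2 window, from 11008880, lies wholly upstream of the gene in GENCODE, the source of the positions below, where Irs2 on the minus strand begins at 11008458. CAAAACAA was found on either strand in 825 of 32851 RefSeq promoter windows (2.51%), CACGTG in 7.15% and both in 0.155%. Of the 9 genes, 8 had a window and Insr had none; Bmf had 3. CAAAACAA was in the windows of these 3 genes alone among the 8, and GTAAACA or its complement, the consensus FOXO site, which 3.65% of windows hold, was in none of the 8. CACGTG was added to the search after the sequences were seen. Only exact matches to these sequences were sought, so the absence of GTAAACA does not mean that other sites of FOXO factors are absent. A match is a description of these letters, not a bound site.

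Library totals ran from 34715506 to 46074052 counts. The lowest count of any of the 9 genes was 65, for Igfbp1, and the highest 9327, for Insr. Levels are in CPM, the count divided by the effective size of its library, which allows for composition. Summed hepatocyte markers stood at 82614 to 91825 CPM at night and at 85528 to 115933 CPM by day. None of the 4 pancreatic islet hormone genes looked for is listed in the table, and adipocyte markers summed to at most 1.52 CPM. Other cell markers differed between libraries. Kupffer cell markers summed to 255 and 176 CPM at ZT14, to 328 and 281 CPM at ZT02 and to 206 to 285 CPM elsewhere. Sinusoidal endothelial markers summed to 346 to 484 CPM, stellate cell markers to 336 to 427 CPM and cholangiocyte markers to 35.4 to 69.9 CPM. Lymphocyte markers summed to 3.65 and 7.10 CPM at ZT14, the lowest of the 12 libraries, and to 7.65 to 17.3 CPM elsewhere. Erythroid markers summed to 308 and 278 CPM at ZT14 and to 112 to 350 CPM elsewhere. The highest erythroid sum was in ZT02 replicate 1, and ZT22 replicate 1 had 256 CPM. Pancreatic acinar markers were highest in ZT14 replicate 2, at 37.4 CPM over 8 genes, against 9.74 CPM in ZT14 replicate 1 and at most 18.3 CPM elsewhere. Their part in the results below was not tested. ZT02 and ZT06 libraries resembled each other across these times by replicate number (r = 0.48 for replicates 1 and 0.49 for replicates 2, over 9876 genes of at least 5 CPM centred and scaled per gene) more than within a time (r = 0.15 at ZT02 and 0.07 at ZT06). This is given as a description, since the pairs share genes and scaling.

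The 9 genes were chosen by their CPM over the 6 time points, that is, with their day and night levels known, so the comparison of night with day is given for them as a description, with no test. Of the 9 genes, 8 were lower at night and Irs1 alone was higher. The 6 night libraries lay wholly below the 6 day libraries for Insr, Irs2 and Tcp11l2, and the groups overlapped for the other 6 genes; night lay wholly below day for 2.10% of all tested genes, wholly above for 1.60% and either for 3.70%. In the fit over all genes 7 of the 9 were among those called lower at night, against 4.89% of all tested genes (4.80% higher, 9.70% in either direction), and nothing is read from that count. The median log2 difference of night minus day was -0.36 over the 9 genes and 0.01 over all 17142. In whole tissue, fewer cells of a type and less RNA per cell cannot be told apart.

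**Figure D1:**
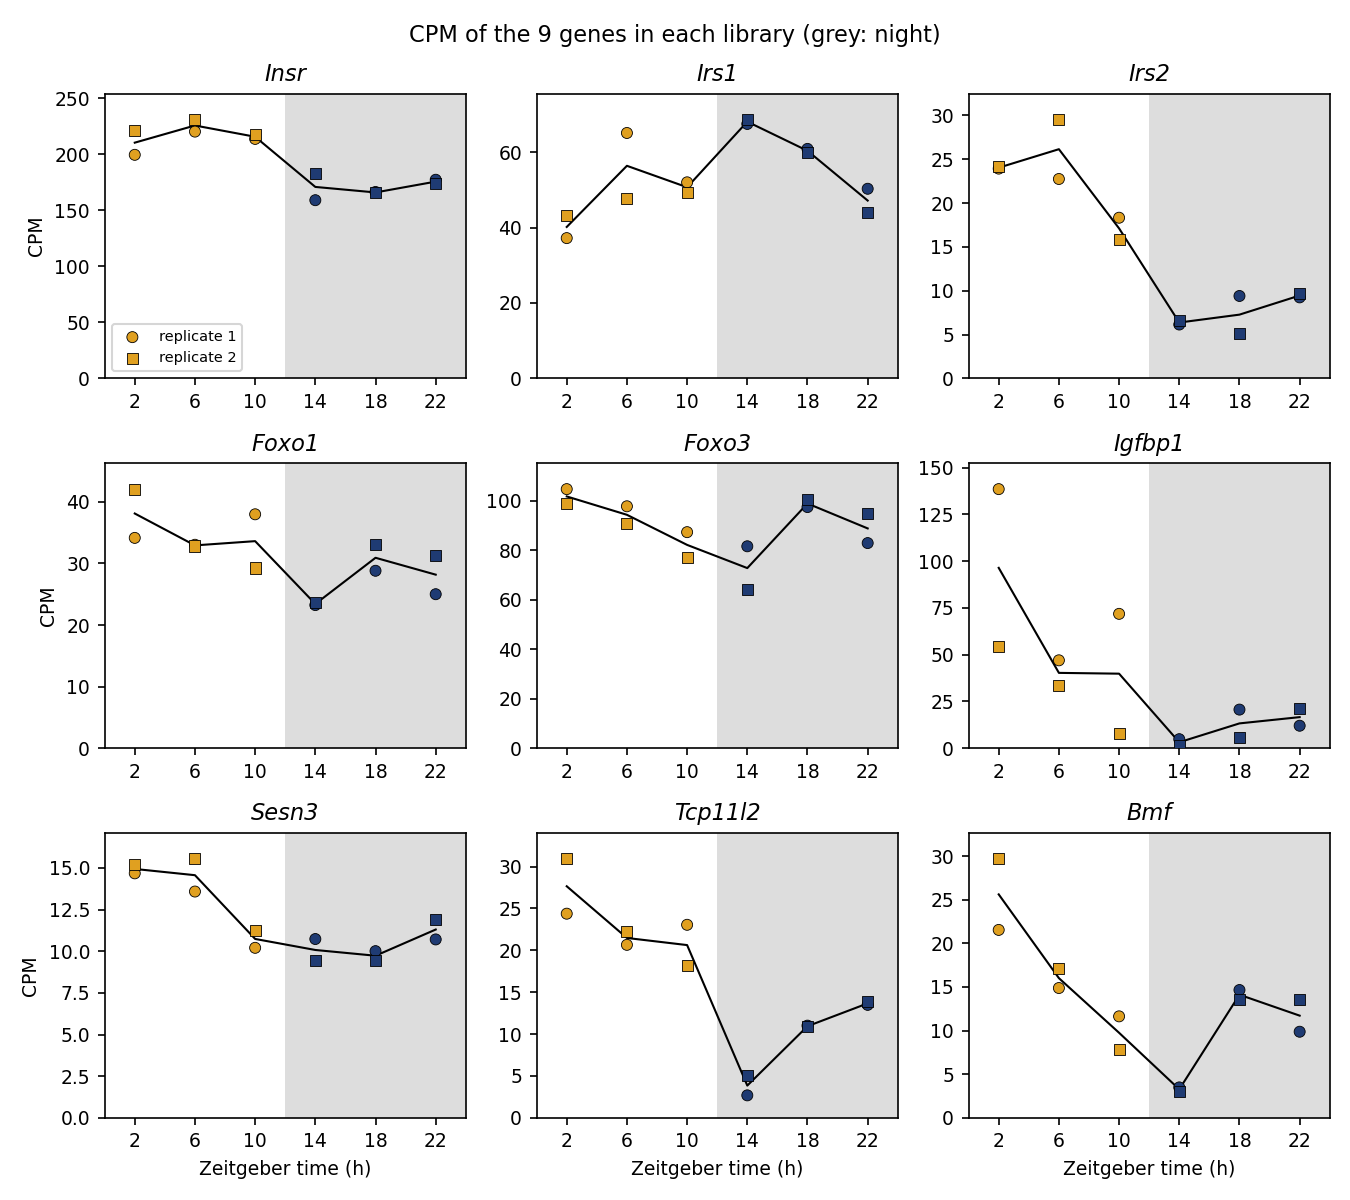
CPM of each gene (vertical axes from 0) against zeitgeber time in h; circles and squares are the 2 libraries of a time point, the line joins their means, and night is shaded, with night libraries in blue and day libraries in yellow. Irs2 and Tcp11l2 have all 6 night libraries below all 6 day libraries, Irs1 is highest at ZT14, and Igfbp1 differs most between libraries of one time, 71.8 against 7.82 CPM at ZT10.

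Insr encodes the insulin receptor, the tyrosine kinase at the head of the pathway (ENSMUSG00000005534, chromosome 8, 3122061 to 3279617, mm10, minus strand). It was at 199.6 and 221 CPM at ZT02, 220.3 and 231 at ZT06, 214 and 218 at ZT10, 159 and 183 at ZT14, then 166 and 166 at ZT18 and 177 and 174 at ZT22. Every night library was below every day library, and the step was small. Insr averaged 171 ± 8.71 CPM at night and 217 ± 10.4 by day (SD, n = 6 each), a log2 difference of -0.35 ± 0.06 (SE). A 24 h cosine fitted to its log2 CPM spanned 1.41-fold between trough and peak (95% interval 1.29 to 1.54), with the peak at ZT 5.98 ± 0.45 h (SE). Its 2 libraries per time agreed closely, with a pooled SD of 0.08 on the log2 scale, where the median gene of at least 5 CPM had 0.14.

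Irs2 encodes the adaptor that couples the receptor to phosphoinositide 3-kinase in the fasted liver (ENSMUSG00000038894, chromosome 8, 10984681 to 11008458, minus strand). It was at 23.9 and 24.1 CPM at ZT02, 22.7 and 29.5 at ZT06, 18.3 and 15.9 at ZT10, 6.14 and 6.60 at ZT14, then 9.40 and 5.14 at ZT18 and 9.24 and 9.66 at ZT22. The lowest day library stood well above the highest night library and ZT10 had the lowest mean of the day times. Irs2 averaged 7.70 ± 1.96 CPM at night and 22.4 ± 4.81 by day (SD, n = 6 each), a log2 difference of -1.54 ± 0.13 (SE). At ZT14 the mean was 2.69-fold lower than at ZT10, and at ZT02 2.54-fold higher than at ZT22. The fitted range was 4.80-fold (3.32 to 6.95) with a peak at ZT 4.96 ± 0.40 h. Leaving out any 1 library gave ranges of 4.50- to 5.81-fold.

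Irs1 encodes the other main hepatic adaptor (ENSMUSG00000055980, chromosome 1, 82233101 to 82291416, minus strand). It was at 37.2 and 43.1 CPM at ZT02, 65.1 and 47.7 at ZT06, 52.0 and 49.4 at ZT10, 67.5 and 68.7 at ZT14, then 60.9 and 59.9 at ZT18 and 50.3 and 44.0 at ZT22. Both ZT14 libraries were above all others, while the night and day groups as wholes overlapped. Irs1 averaged 58.5 ± 9.68 CPM at night and 49.1 ± 9.42 by day (SD, n = 6 each), a log2 difference of 0.25 ± 0.08 (SE). Its fitted range was 1.499-fold (1.16 to 1.94) with a peak at ZT 14.03 ± 1.08 h.

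The ratio between the transcripts of the adaptor pair differed between night and day libraries. Per kb of exon, Irs1 stood at 7.38 and 7.51 CPM and Irs2 at 0.972 and 1.04 CPM at ZT14. At ZT02 Irs1 stood at 4.07 and 4.72 CPM per kb, and Irs2 at 3.79 and 3.82. The ratio of Irs1 to Irs2 was 3.15 to 8.05 in the 6 night libraries, with a median of 5.84, and 1.08 to 2.15 in the 6 day libraries, with a median of 1.60. The ranges did not overlap; the night and day libraries of Irs1 overlapped, and those of Irs2 did not. The ratio was highest at ZT14, with 7.59 and 7.20, and in ZT18 replicate 2, with 8.05. Genes annotated on the opposite strand over exons of Irs2 and Irs1 had at most 15 and 4 counts, which is at most 1.68% and 0.189% of the count of the gene they overlap. The strand setting of the counting is not given in the sources used here.

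**Figure D2:**
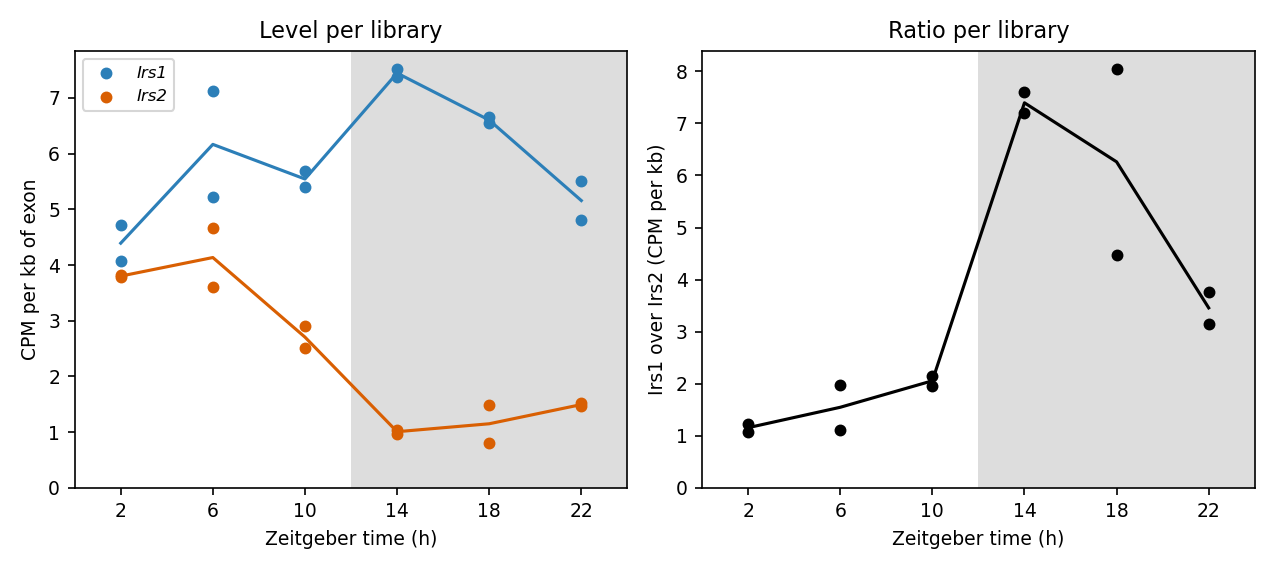
Left, CPM per kb of exon of Irs1 (blue) and Irs2 (orange) in each library against zeitgeber time in h, with lines through the means of the 2 libraries; right, the ratio of Irs1 to Irs2 in each library. Night is shaded; the ratio stays at or below 2.15 by day and at or above 3.15 at night.

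Foxo1 and Foxo3 encode the forkhead factors that AKT holds out of the nucleus. Between the times of the highest and lowest mean, ZT02 and ZT14 for both, Foxo1 differed 1.63-fold and Foxo3 1.40-fold. Foxo1 (ENSMUSG00000044167, chromosome 3, 52268336 to 52353221, plus strand) was at 34.2 and 42.1 CPM at ZT02, 33.0 and 32.8 at ZT06, 38.0 and 29.3 at ZT10, 23.2 and 23.6 at ZT14, then 28.8 and 33.0 at ZT18 and 25.0 and 31.4 at ZT22. Its ZT14 libraries were the lowest of the 12, and the night and day groups overlapped. Foxo1 averaged 27.5 ± 4.17 CPM at night and 34.9 ± 4.50 by day (SD, n = 6 each), a log2 difference of -0.35 ± 0.09 (SE). Foxo3 (ENSMUSG00000048756, chromosome 10, 42181841 to 42276755, minus strand) ran from 63.9 through a median of 88.8 to 100.3 CPM at night and from 77.0 through 94.3 to 105 CPM by day. The groups overlapped almost fully, with a log2 difference of -0.10 ± 0.08. Its lowest time was also ZT14, at 72.7 ± 12.5 CPM (SD, n = 2), and both ZT18 libraries, at 97.4 and 100.3 CPM, were back within the day range. Per kb of exon, Foxo3 averaged 11.9 ± 1.55 CPM and Foxo1 3.60 ± 0.65 CPM (SD, n = 12 each).

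Igfbp1 encodes a secreted binding protein that takes up insulin-like growth factors and is made in the fasted liver (ENSMUSG00000020429, chromosome 11, 7197782 to 7202546, plus strand). It was at 138 and 54.3 CPM at ZT02, 46.9 and 33.5 at ZT06, 71.8 and 7.82 at ZT10, 4.78 and 1.49 at ZT14, then 20.6 and 5.84 at ZT18 and 12.0 and 21.2 at ZT22. Among day libraries the level was high with 1 exception, ZT10 replicate 2, which lay inside the night range and made the groups overlap. Igfbp1 averaged 11.0 ± 8.39 CPM at night and 58.8 ± 44.5 by day (SD, n = 6 each), a log2 difference of -2.61 ± 0.54 (SE), the largest of the 9 genes. The fitted range was 16.1-fold with a wide 95% interval of 3.16 to 81.5, and its peak was at ZT 3.36 ± 0.99 h. The range was 9.89-fold without ZT14 replicate 2 and 24.5-fold without ZT18 replicate 1, and the log2 difference was -1.83 without ZT10 replicate 1, the largest moves from leaving out 1 library.

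The spread of Igfbp1 between libraries of one time was itself large. The pooled SD was 1.25 on the log2 scale, and 10 of 9876 genes of at least 5 CPM (0.101%) had a larger one. The higher library was 9.18-fold above the lower at ZT10, 3.53-fold at ZT18, 3.21-fold at ZT14 and 2.55-fold at ZT02. The other members did not share spread of this size: their pooled SDs ran from 0.08 for Insr to 0.29 for Tcp11l2. At ZT10, where Igfbp1 differed most, 7 of the 9 genes were higher in replicate 1 than in replicate 2, against 49.7% of all tested genes. Irs2 was 1.15-fold higher in that library, Tcp11l2 1.27-fold and Bmf 1.48-fold. The order was not the same at every time. At ZT02, 7 of the 9 genes were higher in replicate 2, while Igfbp1 was higher in replicate 1, as were 50.5% of all tested genes. Replicate 1 was higher for 7 of the 9 at ZT18 and for 2 at ZT22, against 46.6% and 49.1% of all tested genes. At ZT06 and ZT14 it was higher for 4 of the 9, against 49.0% and 49.7%.

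Sesn3 encodes sestrin 3, a stress-responsive protein that restrains mTORC1 signalling (ENSMUSG00000032009, chromosome 9, 14275067 to 14333101, plus strand). It was at 14.7 and 15.2 CPM at ZT02, 13.6 and 15.5 at ZT06, 10.2 and 11.3 at ZT10, 10.7 and 9.42 at ZT14, then 10.01 and 9.45 at ZT18 and 10.7 and 11.9 at ZT22. The 4 libraries of ZT02 and ZT06 were the highest, and those of ZT10 were already at the night level. Sesn3 averaged 10.4 ± 0.94 CPM at night and 13.4 ± 2.20 by day (SD, n = 6 each), a log2 difference of -0.36 ± 0.07 (SE). Per kb of exon it had the lowest mean of the 9 genes, 0.779 ± 0.148 CPM (SD, n = 12).

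Tcp11l2 encodes a protein of the TCP11 family (ENSMUSG00000020034, chromosome 10, 84576626 to 84614359, plus strand). It was at 24.4 and 30.9 CPM at ZT02, 20.6 and 22.3 at ZT06, 23.0 and 18.2 at ZT10, 2.68 and 5.02 at ZT14, then 11.0 and 10.9 at ZT18 and 13.5 and 13.8 at ZT22. All night libraries were below all day libraries, and both ZT14 libraries were below the other 4 of the night. It averaged 9.48 ± 4.59 CPM at night and 23.2 ± 4.32 by day (SD, n = 6 each), a log2 difference of -1.47 ± 0.13 (SE). At ZT14 its mean was 5.36-fold lower than at ZT10.

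Bmf encodes a BH3-only protein that binds BCL2-type survival proteins and promotes cell death (ENSMUSG00000040093, chromosome 2, 118528757 to 118549687, minus strand). It was at 21.5 and 29.7 CPM at ZT02, 14.9 and 17.1 at ZT06, 11.6 and 7.86 at ZT10, 3.49 and 3.05 at ZT14, then 14.7 and 13.6 at ZT18 and 9.87 and 13.6 at ZT22. Both ZT14 libraries were the lowest of the 12. Both ZT18 libraries were below both ZT06 libraries and above both ZT10 libraries. The ZT10 libraries lay within the night range, so the night and day groups overlapped. Bmf averaged 9.70 ± 5.24 CPM at night and 17.1 ± 7.73 by day (SD, n = 6 each), a log2 difference of -0.96 ± 0.13 (SE). The time of the highest mean stood 7.84-fold above that of the lowest for Bmf, 7.18-fold for Tcp11l2 and 30.8-fold for Igfbp1, and the lowest was ZT14 for all 3.

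The differences within the light phase and within the dark phase use the same CPM values over the 6 time points, so for the 9 genes they are also given as a description, with no test. At ZT10, late in the light phase, Bmf was at 9.75 ± 2.67 CPM, against 25.6 ± 5.76 CPM at ZT02, early in it (SD, n = 2 each), a log2 difference of -1.39 ± 0.22 (SE). Sesn3 was at 10.7 ± 0.75 CPM at ZT10 and 14.9 ± 0.37 at ZT02 (-0.48 ± 0.13), with both ZT10 libraries below both ZT02 libraries. The log2 difference was -0.49 ± 0.22 for Irs2, -1.28 ± 0.86 for Igfbp1, -0.42 ± 0.22 for Tcp11l2 and 0.34 ± 0.14 for Irs1. In the fit over all genes 1 of the 9, Bmf, was among those called lower, against 0.350% of all tested genes (0.531% higher, 0.881% in either direction), and nothing is read from that count.

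At ZT22, late in the dark phase, Tcp11l2 was at 13.7 ± 0.26 CPM, against 3.85 ± 1.65 CPM at ZT14, early in it (SD, n = 2 each), 3.52-fold higher (log2 difference 1.82 ± 0.24). Bmf was at 11.7 ± 2.61 CPM at ZT22 and at 3.27 ± 0.31 CPM at ZT14, 3.59-fold higher (1.84 ± 0.24). Igfbp1 had the largest difference of the 9 genes and the largest error, 2.42 ± 0.97, at 16.6 ± 6.51 CPM at ZT22 and 3.13 ± 2.32 CPM at ZT14. The log2 difference was 0.57 ± 0.23 for Irs2, -0.53 ± 0.14 for Irs1 and 0.04 ± 0.11 for Insr. In the fit over all genes 2 of the 9, Tcp11l2 and Bmf, were among those called higher, against 0.146% of all tested genes (0.449% lower, 0.595% in either direction), and nothing is read from that count either. The 4 libraries of this comparison include those of ZT14, whose cell markers are given above.

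**Figure D3:**
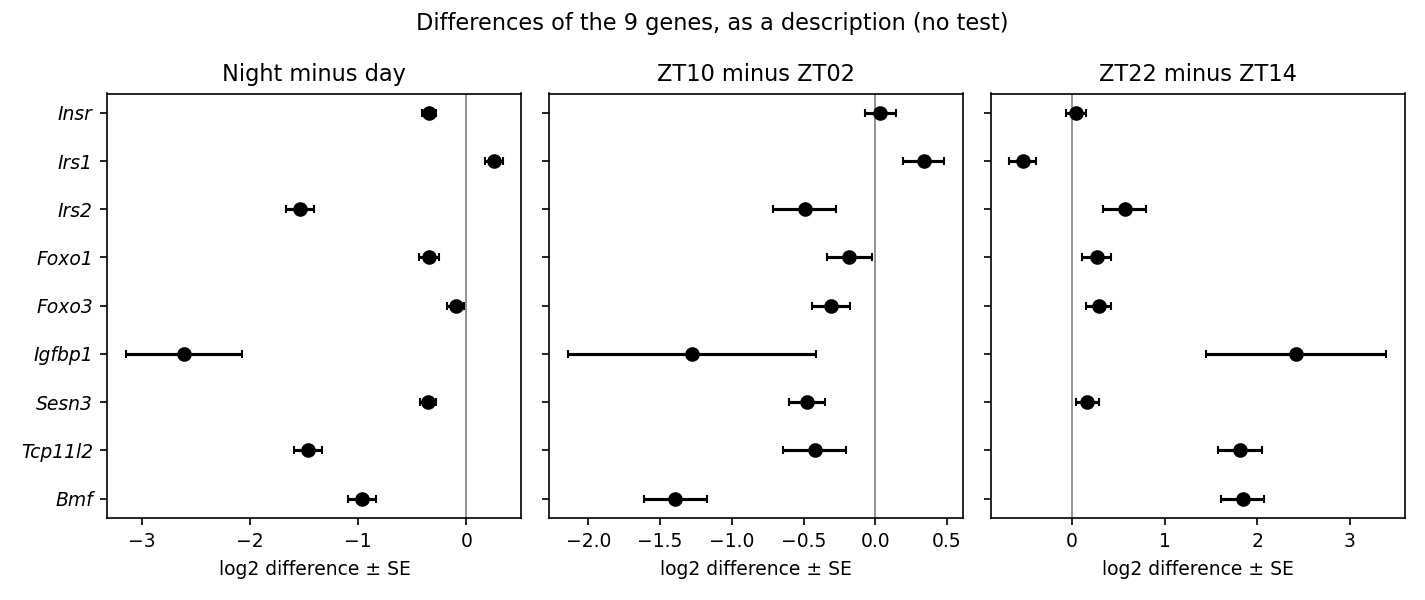
Log2 differences with SE for the 9 genes, as a description with no test: night minus day (left), ZT10 minus ZT02 (middle) and ZT22 minus ZT14 (right). Bmf lies at -1.39 in the middle panel, Tcp11l2 and Bmf lie at 1.82 and 1.84 on the right, and the point of Irs1 lies on the other side of 0 from that of Irs2 in each panel.

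Across the 12 libraries, correlations between members differed widely. Tcp11l2 and Bmf correlated at r = 0.86, Foxo3 and Bmf at 0.86, Foxo1 and Bmf at 0.85, and Insr and Irs2 at 0.91 (Pearson, log2 CPM). Foxo3 correlated at 0.09 with Insr, 0.37 with Irs2 and 0.49 with Sesn3, and Insr and Bmf at 0.45. Irs1 was negatively correlated with each of the other 8, from -0.41 with Insr to -0.71 with Tcp11l2. All these values rest on the same 12 libraries and 6 times. Among 9876 genes of at least 5 CPM, the profile of Irs2 was most like those of Calcoco1 (r = 0.958), Agtr1a (0.949), Anapc7 (0.946), Xrn2 (0.941) and Zcchc11 (0.940). That of Tcp11l2 was most like Dsc2 (0.979), Avl9 (0.978), Klhl24 (0.972), Prkd3 (0.969) and Epc2 (0.968). That of Igfbp1 was most like Ip6k2 (0.895), Rab17 (0.887), Btg1 (0.883), Ocln (0.877) and Atrn (0.868).

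Per kb of exon, mean levels over the 12 libraries were ordered Igfbp1 (22.9 ± 25.9 CPM per kb, SD), Insr (14.1 ± 1.89), Foxo3 (11.9 ± 1.55), Irs1 (5.89 ± 1.13), Tcp11l2 (4.76 ± 2.43), Foxo1 (3.60 ± 0.65), Bmf (2.55 ± 1.41), Irs2 (2.38 ± 1.34) and Sesn3 (0.779 ± 0.148). The mean of Igfbp1 does not differ from any of the others beyond the sum of their SDs. These SDs over 12 libraries include the change over the day, and the rule does not compare the genes within each library. It therefore does not say that Igfbp1 and another gene have the same level. Of the neighbours in this order, Insr and Foxo3, Irs1 and Tcp11l2, Tcp11l2 and Foxo1, Foxo1 and Bmf, and Bmf and Irs2 also do not differ beyond the sum of their SDs. Nor do Tcp11l2 and Bmf, Tcp11l2 and Irs2, or Foxo1 and Irs2, which stand further apart in it.

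Other genes of the pathway, which were not members, were tested for night against day in 7 lists. The lists were drawn up with earlier results of these data known, which named G6pc, Pck1, Gabarapl1 and Bnip3 among others. They are therefore not independent evidence of a direction. Their counts and p-values are given as a description, and nothing is read from the counts. Of 34 tested genes of the FOXO family and its described targets, 14 were lower and none higher at night (41.2% against 4.89% of all genes), with a list median of -0.27 and an all-gene median of 0.01 on the log2 scale. For higher, the count at an unadjusted p under 0.05 was also 0, as was that by DESeq2 and limma-voom. Gabarapl1, which encodes an autophagosome protein, had 151 ± 18.7 CPM at night and 271 ± 42.7 by day (SD, n = 6 each; log2 difference -0.85 ± 0.11, edgeR adjusted p = 0.00249). Fbxo32, the gene of the ubiquitin ligase atrogin-1, had 2.52 ± 0.97 CPM at night and 6.47 ± 2.11 by day (edgeR adjusted p = 0.00507), Ccng2, a cyclin G gene, at 8.41 ± 2.67 at night and 15.3 ± 3.18 by day (0.00370), and Bnip3, a mitophagy receptor gene, at 152 ± 31.1 at night and 208 ± 32.0 by day (0.00450). The gluconeogenic genes Pck1 and G6pc were also among the 14, with larger p-values (edgeR adjusted p = 0.0309 and 0.0342). So were the coactivator gene Ppargc1a (0.02465) and the lipase gene Pnpla2 (0.0308). Foxo4, another FOXO gene, had 18.7 ± 2.11 CPM at night and 22.6 ± 2.95 by day and did not pass (adjusted p = 0.0596). The count of 14 was 8 without either ZT18 library, ZT02 replicate 2, ZT14 replicate 1 or ZT22 replicate 2, and 9 without ZT22 replicate 1. Leaving out ZT02 replicate 2 with ZT06 replicate 1 gave 10, and ZT02 replicate 1 with ZT06 replicate 2 gave 12.

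In the list of mTORC1, mTORC2 and their regulators, 7 of 25 genes were lower at night and none higher (median -0.12). Of all tested genes, 4.89% were lower and 4.80% higher, and nothing is read from the count of this list. No count with libraries left out is given for this list alone. The count over all lists moved when 1 library was left out, as given below, so the 7 may also depend on single libraries. For higher, 1 gene had an unadjusted p under 0.05, and DESeq2 and limma-voom called 0. Rictor, the defining subunit of mTORC2, had 35.2 ± 4.45 CPM at night and 50.5 ± 4.99 by day (SD, n = 6 each; log2 difference -0.52 ± 0.08, edgeR adjusted p = 0.00556), and it is also in the FOXO list. Fnip1 and Fnip2, which encode partners of folliculin, had -0.74 ± 0.12 (adjusted p = 0.00593) and -0.50 ± 0.10 (0.0116), and Tsc1, an mTORC1 inhibitor gene, -0.37 ± 0.07 (0.0109). The folliculin gene Flcn, the sestrin gene Sesn2 and the autophagy kinase gene Ulk1 made up the 7.

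Between the receptor and AKT, 3 of 30 genes were lower and 1 higher at night (median -0.07), where 4.89% of all genes were lower and 4.80% higher. These are few genes, and the count is not read as a result about the list. Cblb, a ubiquitin ligase gene, had -0.60 ± 0.11 on the log2 scale (edgeR adjusted p = 0.00973), Gab1, a docking protein gene, -0.38 ± 0.07 (0.0117), and Pik3cb, a catalytic subunit gene of phosphoinositide 3-kinase, -0.31 ± 0.06 (0.0133). Pik3r1, which encodes the regulatory subunit that binds IRS proteins, had 163 ± 25.9 CPM at night and 120.1 ± 24.6 by day (SD, n = 6 each; 0.43 ± 0.11, adjusted p = 0.0298). With 1 library left out Pik3r1 failed the test 8 of 12 times (adjusted p up to 0.0796) and passed without ZT02 replicate 1, ZT06 replicate 1 or either ZT10 library. It also failed without either ZT02 and ZT06 pair. The call of Pik3cb was lost without ZT02 replicate 2 and ZT06 replicate 1 together (0.0551).

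The 14 insulin-induced lipogenic and glycolytic genes are described by their level as a list. The list had a median log2 difference of 0.44 between night and day, and its day libraries were spread widely. The mean centred log2 CPM of the list was 0.75 and 0.97 in replicates 1 of ZT02 and ZT06 and -1.03 and -0.90 in replicates 2. At ZT10 it was -1.41 in replicate 1 and -0.54 in replicate 2, so the order of the replicates was not the same at the 3 day times. Irs2 was at 23.9 and 24.1 CPM in replicates 1 and 2 of ZT02, 22.7 and 29.5 at ZT06 and 18.3 and 15.9 at ZT10.

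None of 14 genes of the IGF axis passed, where 9.70% of all tested genes were called in either direction. Of the 14, 3 had an unadjusted p under 0.05, and DESeq2 called 2 and limma-voom 1. The count is not read as a result about this list. Its most abundant genes were Igfbp4, at 1187 ± 65.9 CPM at night and 1210 ± 111 by day, and Ghr, the growth hormone receptor gene, at 578 ± 60.9 at night and 609 ± 67.2 by day (SD, n = 6 each; edgeR adjusted p = 0.869 and 0.651). In the list of glucagon, cAMP and glucocorticoid responses, Prkacb, a protein kinase A subunit gene, passed among 19 rows (-0.23 ± 0.06, adjusted p = 0.0416). With 1 library left out it failed the test 9 of 12 times, and it also failed with scaling by total counts and without either ZT02 and ZT06 pair (adjusted p up to 0.128). It passed without ZT02 replicate 1, ZT10 replicate 1 or ZT14 replicate 2. Among 13 genes of the BCL2 family, Bcl2l11, which encodes the BH3-only protein BIM, was lower at night, at 5.59 ± 0.58 CPM against 8.25 ± 1.40 by day (-0.56 ± 0.11, adjusted p = 0.0122). Bak1, a pore-forming effector gene, was higher, at 14.4 ± 1.35 against 10.8 ± 1.497 by day (0.42 ± 0.09, adjusted p = 0.0210). The share lower at night was 5.26% in the glucagon list and 7.69% in the BCL2 family, against 4.89% of all genes. For higher, the counts were 0 and 1, where 4.80% of all genes were higher. These counts are not read as results about the lists. The call of Bak1 was lost without ZT14 replicate 1, ZT18 replicate 2 or ZT22 replicate 2, and without ZT02 replicate 2 and ZT06 replicate 1 together (up to 0.0664).

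**Figure D4:**
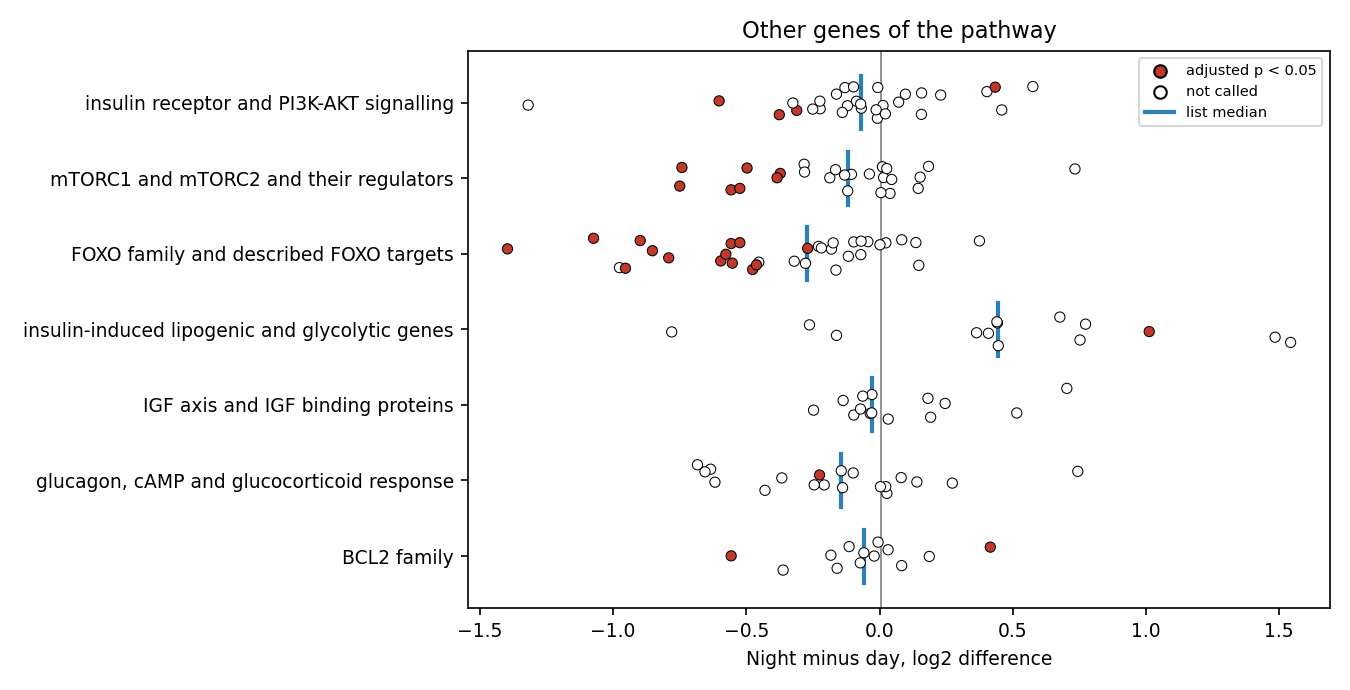
Night minus day as a log2 difference for every tested gene of 7 pathway lists, 1 point per gene, red where adjusted p was under 0.05 and white elsewhere; the blue bar is the list median and the grey line the median of all genes. The FOXO list has 14 red points, all below 0, and the IGF list has none.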

How the data were processed

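The table deposited by the authors holds exon counts, unnormalized whole numbers for each gene in 12 libraries. Per the submitters' processing notes STAR 2.4.0i and mm10 were used; how reads were counted, with which strand setting and annotation, is not given in the sources used here. Libraries were rRNA-depleted, stranded and paired-end, per the labels' protocols. Positions and exon lengths came from GENCODE M21 (mm10), matched by gene identifier. The fit used edgeR 4.0.16 under R 4.3.3 (TMM, filterByExpr with a minimum count of 10 and total of 15, a 6-group quasi-likelihood fit of all 12 libraries), and p-values were adjusted over all 17142 tested genes, with calls under 0.05. Correlations and cosines used log2 CPM with a prior count of 2. Between the 2 libraries of a time, chi-square divided by its degrees of freedom was 15.5 to 92.2, above sampling noise. The members and lists were chosen with earlier results of these data known, so no test is given for the members, including those first planned within the light and dark phases. Of each list, up to 4 called genes with the smallest p were named, or the 2 most abundant; others named in passing were chosen after their values were seen, and 1 result of the lipogenic and glycolytic list is not reported here. For Irs2, Igfbp1 and Tcp11l2 the 5 most similar genes were named. The fits were tested on simulated data. Alternatives were RLE factors, total counts, 2 other filters, DESeq2 1.42.0, limma-voom (limma 3.58.1), a replicate block and libraries left out.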

Additional observations from a re-analysis of the deposited data

How the results depend on the processing

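None of the 9 genes changed the sign of its night and day difference under any of the 21 alternatives. The count of genes called between night and day was 1662; leaving aside ZT02 replicate 2 with ZT06 replicate 1 gave 892, and 1 library left out gave 647 to 1864. Between ZT10 and ZT02 it was 151; total counts gave 319, DESeq2 758, leaving aside ZT02 replicate 2 with ZT06 replicate 1 gave 246, ZT02 replicate 1 with ZT06 replicate 2 gave 0, and 1 library left out gave 0 to 170. Between ZT22 and ZT14 it was 102; DESeq2 gave 426 and 1 library left out gave 0 to 118. Where a time point kept 1 library, that library is assumed to vary like the others. Genes lower at night were 24 over all lists (14 to 29 without 1 library) and 14 in the FOXO list (8 to 17). With the replicate block the counts were 1609, 128 and 71, and no call of the named list genes changed. Over all time points replicate numbers did not pair the libraries, although ZT02 and ZT06 libraries resembled each other by number: deviations from time-point means correlated at -0.18 to 0.27 over 15 pairs of time points, 2 of them above 0.1. The fitted 24 h range of Tcp11l2 was 3.30-fold without ZT14 replicate 1, against 4.72-fold with all libraries. That of Bmf was 3.56- and 3.35-fold without ZT14 replicates 1 and 2, against 4.31-fold. With 2 libraries per time point, differences within a phase rest on 4 libraries.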
